A study of Mus musculus with 6 samples.

Results

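The 37 genes described here encode lysosomal membrane proteins, lysosomal hydrolases and their cofactors, the MiT/TFE transcription factors that control them, and subunits of the vacuolar H+-ATPase (V-ATPase). They were picked by symbol from 35865 mouse genes with no threshold on a measured value, though earlier results of these data were known when the list was drawn up. All 37 passed the filter on low counts and were among the 16386 genes tested. The macrophages had been sorted from digested hearts and were derived from donor haematopoietic progenitor cells of C57BL/6J mice. In 3 libraries the cells were Tet2-deficient (Tet2 KO) and in 3 they were wild type for Tet2 (Tet2 WT); the series title says that the recipients were not conditioned. The sort gate, the age of the mice, the deleted stretch of Tet2 and the share of donor cells are not given in the sources used here. Nothing in the labels ties the libraries of a genotype to different mice. The p-values therefore reflect only how far these libraries spread, and that spread may be technical.

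Lysosomes are acidic organelles in which soluble hydrolases break down glycans, lipids and proteins taken up by endocytosis, phagocytosis or autophagy, and macrophages are rich in them. The V-ATPase pumps protons into the lumen: its membrane sector, V0, carries the protons and its cytosolic sector, V1, splits ATP. TFEB, TFE3 and MITF are related basic helix-loop-helix factors that bind E-box sequences of the form CACGTG near many lysosomal genes, and the kinase mTORC1 holds TFEB and TFE3 in the cytosol when nutrients are plentiful. Inherited loss of single hydrolases causes lysosomal storage disease.

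The deposited estimated counts summed to 37349505, 53586246 and 55771087 in the Tet2 KO libraries and to 49883028, 53586473 and 51477060 in the Tet2 WT libraries. Levels are given as counts per 1e6 counts after TMM scaling (CPM), and fold changes as log2 of Tet2 KO over Tet2 WT. Tet2 itself averaged 80.6 ± 2.23 CPM in Tet2 KO, against 64.8 ± 9.91 CPM in Tet2 WT (SD, n = 3 each), which was not called different (edgeR adjusted p = 0.159), so it does not check the genotype labels. The 16 pan-macrophage markers, summed as CPM of each library's own total, ranged from 30677 to 36560 in Tet2 KO and from 19596 to 26710 in Tet2 WT, and 13 of them were called higher. The 12 fibroblast markers ranged from 2109 to 4037 in Tet2 KO and from 15967 to 30068 in Tet2 WT, and all 12 were called lower. Macrophage markers were thus high in every library, but in Tet2 WT replicates 1 and 3 the summed fibroblast markers (30068 and 25704 CPM) exceeded them (19596 and 22660 CPM), which goes against a label of macrophages alone. Summed pericyte and smooth muscle markers were at 34.0 to 63.6 CPM in Tet2 KO, against 128 to 205 CPM in Tet2 WT. Summed cardiomyocyte markers, at 87.3 to 144 CPM in Tet2 KO, against 112 to 131 CPM in Tet2 WT, and endothelial markers, at 106 to 162 CPM in Tet2 KO, against 80.2 to 212 CPM in Tet2 WT, overlapped between genotypes. Erythroid markers were at 325 to 717 CPM in Tet2 KO, against 34.2 to 262 CPM in Tet2 WT. The part of these markers in the results below was not tested, and in such bulk libraries a larger share of macrophages cannot be told apart from more RNA of a gene per macrophage.

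Of the 37 lysosomal genes, 10 rose in Tet2 KO: Cln3, Hexa, Gla, Gusb, Man2b1, Psap, Gm2a, Grn, Tfe3 and Atp6v1b2. That holds for the TMM scaling used here: with libraries scaled to equal Adgre1 and Csf1r, described further on, 0 of the 37 were called higher and 2 had a log2 fold change above 0. Under that scaling 13 were called lower (35.1%, against 50% of all tested genes). With TMM scaling none fell by edgeR's quasi-likelihood test (0 at an adjusted p under 0.05), and DESeq2 and limma voom also called 0 lower. By the same edgeR test, 24 of the 37 had an unadjusted p under 0.05, as did 4734 of the 16386 tested genes. The 10 make up 27.0% of the genes listed, where 6.11% of all tested genes were called higher and 10.1% lower. The log2 fold change was above 0 for 35 of the 37, against 50.2% of all tested genes, and below 0 for Gaa and Mitf. The median was 0.40 over the 37 and 0.0025 over all tested genes, with a range of -0.27 to 0.87 over the 37. In 22 of the 37 every Tet2 KO library stood above every Tet2 WT library in CPM (59.5%, against 16.4% of all tested genes), and in 0 of them every Tet2 KO library stood below (18.1% of all tested genes). Another 7 of the 37 had edgeR adjusted p-values between 0.05 and 0.10, as did 1016 of the 16386 tested genes. The 18 soluble hydrolases, activators and progranulin had 7 of the calls and a median log2 fold change of 0.44. The 12 V-ATPase genes had 1 call and a median of 0.30.

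**Figure D1:**
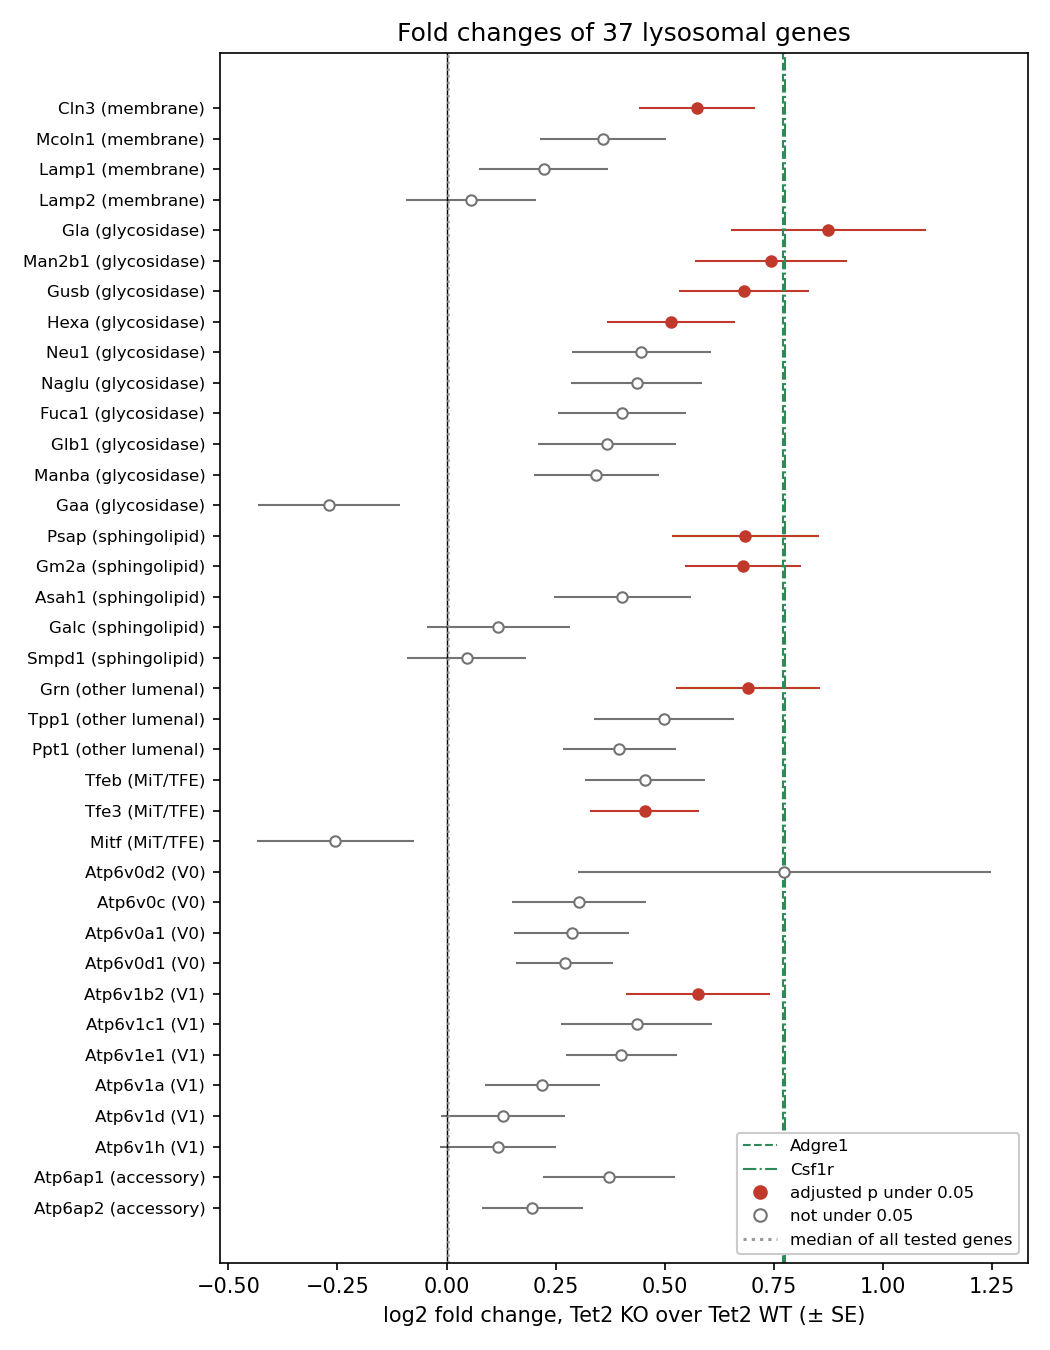
The log2 fold change (Tet2 KO over Tet2 WT) of the 37 genes is plotted with its standard error, grouped by role, with Adgre1 and Csf1r for scale. Filled symbols mark the genes called by edgeR; 35 of the 37 lie right of 0, and Gaa and Mitf lie left of it. Scaled to equal Adgre1 and Csf1r, 2 of the 37 would lie right of 0.

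The count of 10 moved with single libraries. It was 3 without Tet2 KO replicate 1, 22 without Tet2 KO replicate 2 and 1 without Tet2 KO replicate 3. Of all tested genes, 3.48%, 8.31% and 2.51% were called higher in these fits. Without Tet2 KO replicate 3, the 1 of 37 was thus near the share of all tested genes. Among the Tet2 WT libraries, the count was 2 when replicate 1 was left out, 9 for replicate 2 and 6 for replicate 3. The shares of all tested genes were then 2.07%, 5.95% and 3.59%. Gm2a was called each time. On TPM, limma on log2(TPM + 1) called 3 of the 37 higher (2.34% of all tested genes), namely Cln3, Man2b1 and Gm2a. Hexa, Gla, Tfe3 and Atp6v1b2, called on counts, overlapped between genotypes in TPM. For Hexa, Tet2 KO replicate 2 was at 572 TPM and Tet2 WT replicate 3 at 585 TPM. For Tfe3 the same libraries were at 69.4 and 72.7 TPM. Tet2 KO replicate 2 was the lowest Tet2 KO library for 28 of the 37 genes (75.7%, against 38.8% of all tested genes), and Tet2 WT replicate 1 was the lowest Tet2 WT library for 26 (70.3%, against 31.8%). The same libraries had the lowest summed pan-macrophage markers of their genotypes, 30677 CPM in Tet2 KO replicate 2 and 19596 CPM in Tet2 WT replicate 1.

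Promoters that hold CACGTG are shown for Cln3 and Gla, which rose, and for Lamp1, which has the most copies and was not called. Of the 37 genes, 32 had a window of 250 bases before a transcription start in the RefSeq table (GRCm38.p6); those without were Asah1, Atp6v0d2, Atp6v1b2, Atp6v1c1 and Atp6v1h. CACGTG, which is its own reverse complement, occurred in 8 of the 32 (25%) and in 9.05% of the 11938 tested genes with a window. A gene with several windows was counted if any of them held the motif. The longer TCACGTG, searched on both strands and always overlapping CACGTG, occurred in the same share, 25%, against 5.19%. The sequences are those before a RefSeq start, 5′ to 3′ on the gene's strand, with CACGTG in capitals. The window of Cln3 is chr7:126583237-126583486 on the minus strand, that of Gla is chrX:134601006-134601255 on the minus strand, and that of Lamp1 is chr8:13158911-13159160 on the plus strand. The Cln3 window lies inside the gene's annotated span (126571207 to 126585817), before a RefSeq start within it. The Gla window lies partly inside the span of Gla (134588149 to 134601125).
Cln3: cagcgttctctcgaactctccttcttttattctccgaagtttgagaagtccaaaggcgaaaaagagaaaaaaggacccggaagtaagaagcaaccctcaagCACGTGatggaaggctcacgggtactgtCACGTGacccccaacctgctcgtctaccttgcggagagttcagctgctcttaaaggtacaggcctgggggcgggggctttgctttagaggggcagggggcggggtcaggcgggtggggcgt
Gla: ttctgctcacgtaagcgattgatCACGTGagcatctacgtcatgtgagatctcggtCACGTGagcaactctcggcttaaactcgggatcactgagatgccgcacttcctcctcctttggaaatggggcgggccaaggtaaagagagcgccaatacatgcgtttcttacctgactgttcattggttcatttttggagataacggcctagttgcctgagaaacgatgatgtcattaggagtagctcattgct
Lamp1: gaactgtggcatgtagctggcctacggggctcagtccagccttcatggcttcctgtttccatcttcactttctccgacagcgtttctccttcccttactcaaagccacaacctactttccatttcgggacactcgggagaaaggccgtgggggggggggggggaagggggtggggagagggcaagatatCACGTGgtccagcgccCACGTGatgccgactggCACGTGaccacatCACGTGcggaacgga
Counted back from the start, the first base of the motif was at -149 and -121 in Cln3, at -227 and -194 in Gla, and at -61, -45, -28 and -15 in Lamp1. The other holders were Mcoln1, Glb1, Naglu, Gaa and Atp6v1a. The median log2 fold change was 0.36 over the 8 holders, of which 2 were called, and 0.40 over the 24 others, of which 7 were called. Gaa, with 1 copy, had the lowest log2 fold change of the 37. These are matches of letters and were not tested as binding sites.

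Among the membrane proteins, Cln3 rose and the main structural glycoproteins did not pass the test. Cln3 (ENSMUSG00000030720.16; GRCm38 chromosome 7, 126571207 to 126585817, minus strand), whose human counterpart is mutated in juvenile neuronal ceroid lipofuscinosis, was at 76.5, 72.7 and 78.8 CPM in Tet2 KO, against 43.6, 53.9 and 55.6 CPM in Tet2 WT. All Tet2 KO libraries stood above all Tet2 WT libraries, and the log2 fold change was 0.57 ± 0.13 (SE; edgeR adjusted p = 0.0162). Leaving out Tet2 KO replicate 3 ended the call of Cln3 (edgeR adjusted p = 0.0688), as did leaving out Tet2 WT replicate 1 (0.0673). Lamp1, an abundant glycoprotein that lines the lysosomal membrane, was at 1704, 1317 and 1588 CPM in Tet2 KO, against 1249, 1339 and 1364 CPM in Tet2 WT. Its groups overlapped, with Tet2 KO replicate 2 below 2 of the Tet2 WT libraries, and its log2 fold change was 0.22 ± 0.15 (SE; edgeR adjusted p = 0.375). Lamp2, its relative, was at 1016, 757 and 978 CPM in Tet2 KO, against 922, 849 and 876 CPM in Tet2 WT. Tet2 KO replicate 2 had the lowest Lamp2 level of the 6 libraries, and the log2 fold change was 0.06 ± 0.15 (SE; edgeR adjusted p = 0.855). Mcoln1, the calcium-releasing channel TRPML1, had a log2 fold change of 0.36 ± 0.14 (SE; edgeR adjusted p = 0.128).

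Of the 10 glycosidases, 4 rose. Man2b1 (ENSMUSG00000005142.10; chromosome 8, 85083270 to 85098282, plus strand), the lysosomal alpha-mannosidase, was at 695, 591 and 730 CPM in Tet2 KO, against 307, 443 and 454 CPM in Tet2 WT. Its groups did not overlap, and its log2 fold change was 0.74 ± 0.17 (SE; edgeR adjusted p = 0.0175). Gusb (ENSMUSG00000025534.17; chromosome 5, 129989011 to 130003049, minus strand), the beta-glucuronidase of glycosaminoglycan breakdown, was at 429, 345 and 455 CPM in Tet2 KO, against 224, 269 and 275 CPM in Tet2 WT. Again every Tet2 KO library was above every Tet2 WT library, and the log2 fold change was 0.68 ± 0.15 (SE; edgeR adjusted p = 0.0129). Gla (ENSMUSG00000031266.6; chromosome X, 134588149 to 134601125, minus strand), the alpha-galactosidase A that is deficient in Fabry disease, was at 29.9, 21.9 and 22.2 CPM in Tet2 KO, against 14.1, 16.4 and 9.80 CPM in Tet2 WT. It had the largest log2 fold change of the 37 (0.87 ± 0.22 SE, edgeR adjusted p = 0.0249), at one of the lowest levels. In TPM its groups overlapped, at 13.8 ± 2.47 TPM in Tet2 KO against 9.99 ± 1.78 TPM in Tet2 WT (SD, n = 3 each). Gla was not called on length-scaled TPM counts or by limma on log2 TPM. Hexa (ENSMUSG00000025232.8; chromosome 9, 59539540 to 59565109, plus strand), the alpha subunit of beta-hexosaminidase A, was at 1046, 850 and 1020 CPM in Tet2 KO, against 599, 716 and 727 CPM in Tet2 WT. Its groups did not overlap, with a log2 fold change of 0.51 ± 0.15 (SE; edgeR adjusted p = 0.0400).

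Each of these 4 calls ended when certain single libraries were left out. Man2b1 lost its call without Tet2 KO replicate 1 (edgeR adjusted p = 0.0531) or 3 (0.0793), and Gusb without Tet2 KO replicate 3 (0.0671) or Tet2 WT replicate 1 (0.0502). Without Tet2 KO replicate 1 or 3, or Tet2 WT replicate 1 or 3, neither Hexa (edgeR adjusted p = 0.0738 to 0.156) nor Gla (0.0532 to 0.0831) was called.

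The other 6 glycosidases were not called. Neu1, the sialidase, was at 84.9, 90.7 and 79.9 CPM in Tet2 KO, against 50.7, 60.5 and 76.4 CPM in Tet2 WT, without overlap (log2 fold change 0.45, edgeR adjusted p = 0.0909). Naglu, an enzyme of heparan sulfate breakdown, and Fuca1, the alpha-L-fucosidase, did not overlap either, with log2 fold changes of 0.44 and 0.40 (edgeR adjusted p = 0.0814 and 0.0954). Glb1, the beta-galactosidase, and Manba, the beta-mannosidase, had log2 fold changes of 0.37 and 0.34. Gaa, which breaks down lysosomal glycogen, was the glycosidase with a value below 0: 99.3, 73.3 and 98.8 CPM in Tet2 KO, against 120, 90.9 and 116 CPM in Tet2 WT. Those groups overlapped, and the log2 fold change was -0.27 ± 0.16 (SE; edgeR adjusted p = 0.325).

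Both activator proteins of sphingolipid breakdown, Psap and Gm2a, rose, and Asah1, Smpd1 and Galc, the sphingolipid enzymes not counted with the 10 glycosidases, were not called. Psap (ENSMUSG00000004207.14; chromosome 10, 60277627 to 60302597, plus strand) encodes prosaposin, the precursor of the saposins that present sphingolipids to their hydrolases. It was at 4724, 3764 and 4422 CPM in Tet2 KO, against 2286, 2967 and 2782 CPM in Tet2 WT. Its log2 fold change was 0.68 ± 0.17 (SE; edgeR adjusted p = 0.0215), with no overlap. Gm2a (ENSMUSG00000000594.7; chromosome 11, 55098115 to 55113029, plus strand), the activator that lifts GM2 ganglioside to beta-hexosaminidase A, was at 601, 572 and 571 CPM in Tet2 KO, against 317, 401 and 371 CPM in Tet2 WT. The Tet2 KO libraries lay close together and above every Tet2 WT library, and the log2 fold change was 0.68 ± 0.13 (SE; edgeR adjusted p = 0.00746), the smallest adjusted p of the 37. Psap lost its call without Tet2 KO replicate 1 or 3, or Tet2 WT replicate 1 or 3 (edgeR adjusted p = 0.0595 to 0.0966), whereas Gm2a was called with any 1 library left out, at edgeR adjusted p-values up to 0.0347.

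Asah1, the acid ceramidase, was at 773, 533 and 692 CPM in Tet2 KO, against 477, 526 and 509 CPM in Tet2 WT, and its log2 fold change was 0.40 ± 0.16 (SE; edgeR adjusted p = 0.120). For Smpd1, the acid sphingomyelinase, the log2 fold change was 0.05 (edgeR adjusted p = 0.868), and for Galc, the galactosylceramidase, 0.12 (0.701). Both overlapped between genotypes.

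Grn rose, and the thioesterase Ppt1 and the peptidase Tpp1 did not pass the test. Grn (ENSMUSG00000034708.11; chromosome 11, 102430315 to 102437048, plus strand) encodes progranulin, a secreted and lysosomal glycoprotein that is processed to granulins. It was at 1611, 1357 and 1630 CPM in Tet2 KO, against 774, 1011 and 1066 CPM in Tet2 WT. Every Tet2 KO library was above every Tet2 WT library, and the log2 fold change was 0.69 ± 0.16 (SE; edgeR adjusted p = 0.0190). Without Tet2 KO replicate 1 or 3, or Tet2 WT replicate 1, Grn was not called (edgeR adjusted p = 0.0552 to 0.0890). Tpp1, a tripeptidyl peptidase, was at 466, 314 and 404 CPM in Tet2 KO, against 253, 296 and 290 CPM in Tet2 WT (log2 fold change 0.50 ± 0.16 SE, edgeR adjusted p = 0.0651). Ppt1, which removes palmitate from proteins, differed by 0.40 on the log2 scale (edgeR adjusted p = 0.0683). Neither Tpp1 nor Ppt1 overlapped between genotypes.

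**Figure D2:**
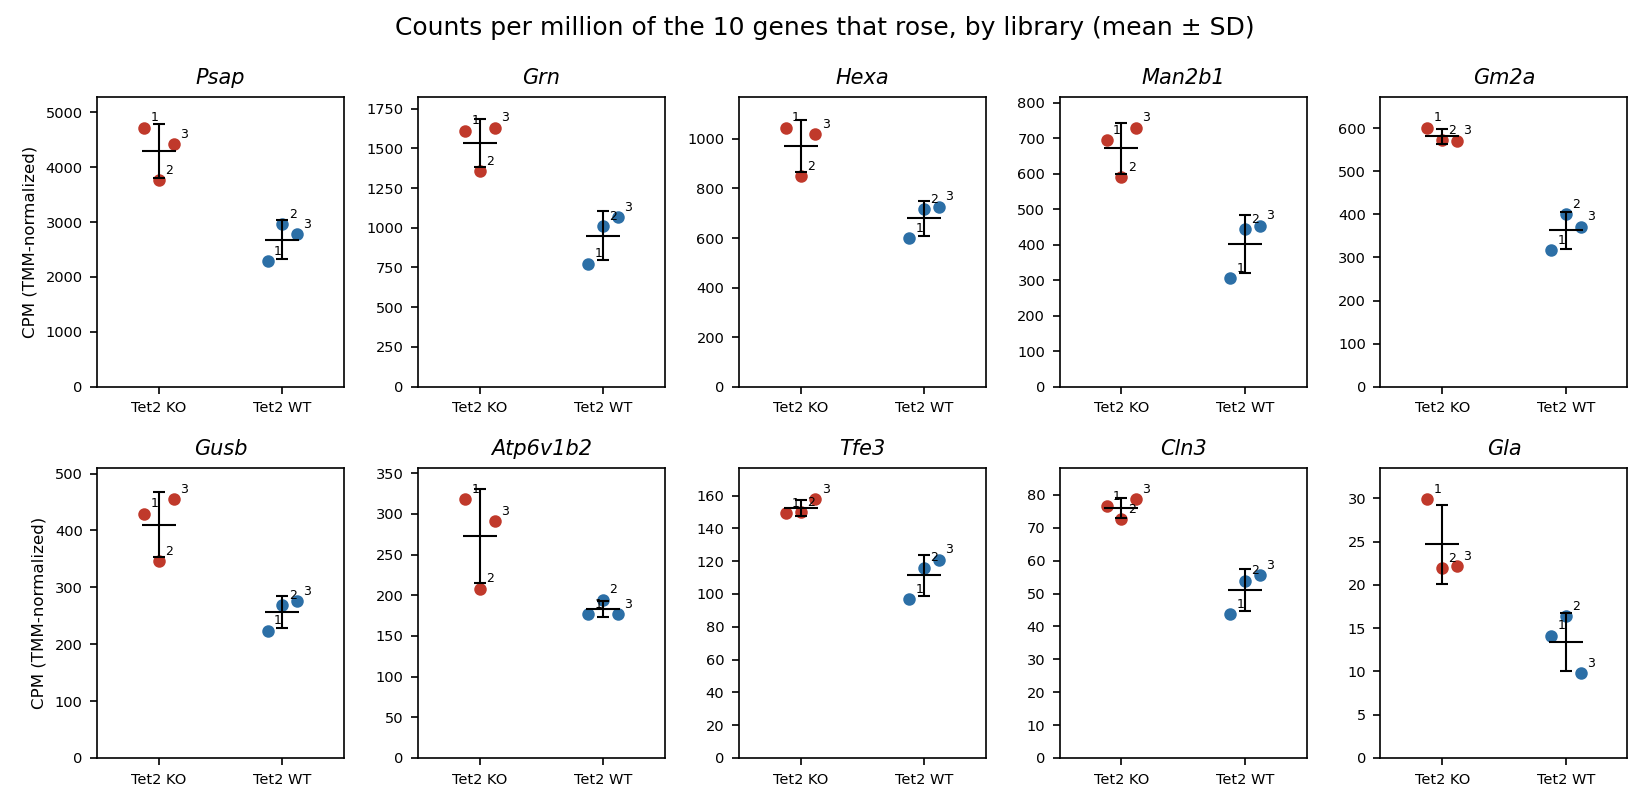
TMM-normalized CPM of the 10 genes that rose is shown for each library, with the replicate number beside each point and the mean ± SD (n = 3 per genotype) as bars. In each panel the 3 Tet2 KO libraries lie above the 3 Tet2 WT libraries in CPM. Atp6v1b2 comes near to overlap (208 CPM in Tet2 KO replicate 2 against 194 CPM in Tet2 WT replicate 2). In TPM, which is not drawn, Hexa, Gla, Tfe3 and Atp6v1b2 overlap between genotypes. Scaled to equal Adgre1 and Csf1r, 0 of these genes were called higher.

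Of the 3 MiT/TFE factors Tfe3 rose, while Tfeb and Mitf did not pass the test. Tfe3 (ENSMUSG00000000134.17; chromosome X, 7762560 to 7775202, plus strand) was at 149, 150 and 158 CPM in Tet2 KO, against 97.0, 116 and 121 CPM in Tet2 WT. Its log2 fold change was 0.45 ± 0.13 (SE; edgeR adjusted p = 0.0359). Tfe3 was called with Tet2 KO replicate 2 left out but with no other library left out: without Tet2 KO replicate 1 or 3, or any 1 Tet2 WT library, the edgeR adjusted p was 0.0538 to 0.133. Tfeb was at 47.7, 38.8 and 40.1 CPM in Tet2 KO, against 30.1, 29.3 and 33.0 CPM in Tet2 WT, without overlap, and its log2 fold change of 0.45 ± 0.14 (SE) missed the threshold (edgeR adjusted p = 0.0524). Mitf was at 21.8, 31.3 and 26.3 CPM in Tet2 KO, against 27.1, 37.1 and 30.6 CPM in Tet2 WT, with a log2 fold change of -0.25 ± 0.18 (SE; edgeR adjusted p = 0.407). Its groups overlapped.

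Of the 12 V-ATPase genes, Atp6v1b2 was the one called. Atp6v1b2 (ENSMUSG00000006273.14; chromosome 8, 69088646 to 69113711, plus strand) encodes the B2 subunit, the B isoform of most cells, which shares the nucleotide sites with subunit A. It was at 318, 208 and 291 CPM in Tet2 KO, against 177, 194 and 177 CPM in Tet2 WT. The groups did not overlap, but Tet2 KO replicate 2 was close to the Tet2 WT libraries, and the log2 fold change was 0.58 ± 0.16 (SE; edgeR adjusted p = 0.0403). Atp6v1b2 kept its call without Tet2 KO replicate 2, and was not called without Tet2 KO replicate 1 or 3, or any 1 Tet2 WT library (edgeR adjusted p = 0.0551 to 0.146).

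The other 5 genes of the V1 sector were not called, with log2 fold changes of 0.44 for Atp6v1c1, 0.40 for Atp6v1e1, 0.22 for the catalytic Atp6v1a, 0.13 for Atp6v1d and 0.12 for the regulatory Atp6v1h. Of these, Atp6v1e1 had groups that did not overlap (144, 119 and 118 CPM in Tet2 KO against 90.6, 99.9 and 98.6 CPM in Tet2 WT; edgeR adjusted p = 0.0603). The 4 genes of V0 did not pass the test. Atp6v0d1, the widely expressed d subunit, was at 89.5, 88.2 and 87.8 CPM in Tet2 KO, against 72.6, 76.9 and 70.5 CPM in Tet2 WT. Its groups did not overlap, and its log2 fold change of 0.27 ± 0.11 (SE) did not pass (edgeR adjusted p = 0.139). Its paralog Atp6v0d2, known for its part in osteoclast fusion, was at 9.85, 4.10 and 9.04 CPM in Tet2 KO, against 1.91, 6.58 and 4.94 CPM in Tet2 WT. Those groups overlapped, and the log2 fold change of 0.77 carried the widest standard error of the 37, 0.47 (edgeR adjusted p = 0.332). Atp6v0c, the proteolipid of the proton-carrying ring, had a log2 fold change of 0.30 and the a subunit Atp6v0a1 one of 0.29. The accessory subunits Atp6ap1 and Atp6ap2 had 0.37 and 0.20.

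Per length, the 37 genes together held 9489 ± 1172 transcripts per 1e6 (TPM) in Tet2 KO, against 7659 ± 717 TPM in Tet2 WT (SD, n = 3 each), which is 0.949% and 0.766% of all TPM. Psap had the highest level, 2211 ± 302 TPM in Tet2 KO and 1534 ± 210 TPM in Tet2 WT. Over all 6 libraries it was followed by Lamp1, Grn, Atp6v0c, Hexa and Lamp2. Lamp1 (948 ± 144 TPM in Tet2 KO, 906 ± 63.6 TPM in Tet2 WT) and Grn (944 ± 112 TPM in Tet2 KO, 655 ± 118 TPM in Tet2 WT) lay within an SD of each other in Tet2 KO. The lowest were Mitf, Gla and Atp6v0d2, the last at 4.12 ± 1.74 TPM in Tet2 KO and 2.67 ± 1.39 TPM in Tet2 WT. The summed V-ATPase genes differed less than the soluble proteins: 1920 ± 139 TPM in Tet2 KO and 1719 ± 96.0 TPM in Tet2 WT, against 5871 ± 799 TPM in Tet2 KO and 4336 ± 544 TPM in Tet2 WT. This difference between the classes was not tested.

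**Figure D3:**
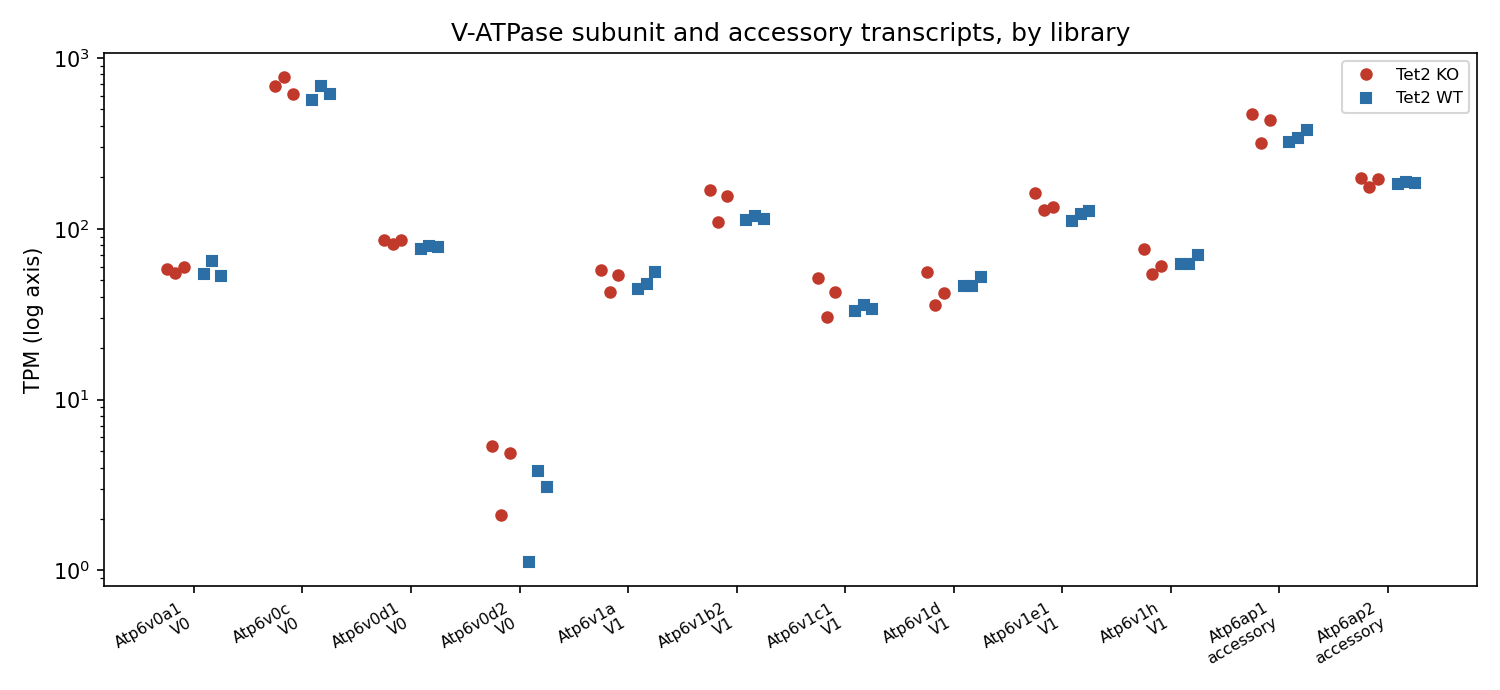
TPM of the 12 V-ATPase genes is shown per library on a log axis, Tet2 KO left of Tet2 WT for each gene, with 1 point for each library. Atp6v0c is the highest (690 TPM in Tet2 KO, 620 TPM in Tet2 WT) and Atp6v0d2 the lowest (4.12 TPM in Tet2 KO, 2.67 TPM in Tet2 WT), and all but Atp6v0d1 and Atp6v1e1 overlap between genotypes.

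The levels were also set against the macrophage markers Adgre1 and Csf1r, both of which rose in Tet2 KO. Adgre1, which encodes F4/80, was at 1389, 1157 and 1446 CPM in Tet2 KO, against 666, 912 and 763 CPM in Tet2 WT (log2 fold change 0.77 ± 0.16 SE, edgeR adjusted p = 0.0112). Csf1r, the receptor for macrophage colony-stimulating factor, was at 3289, 2961 and 3528 CPM in Tet2 KO, against 1482, 2130 and 2104 CPM in Tet2 WT (0.77 ± 0.18 SE, edgeR adjusted p = 0.0167). Neither was called without Tet2 KO replicate 3 (edgeR adjusted p = 0.0594 for Adgre1 and 0.0834 for Csf1r). For each library, log2(CPM + 0.5) of a gene was set against the mean of these markers, and the genotype means were compared. Because the same marker value is taken from every gene, this moves all genes down by about the rise of the markers and keeps nearly the order of their log2 fold changes. The difference was below 0 for 36 of the 37 (97.3%), a share close to the 97.1% of all tested genes, with a median of -0.40 over the 37 and -0.79 over all tested genes. The Tet2 KO libraries were all below the Tet2 WT libraries in 22 of the 37 (59.5%, against 72.4% of all tested genes) and all above in 0 (0.153% of all tested genes); in 15 the groups overlapped. Each of the 37 exact permutation tests, over 20 ways to assign the labels, could reach a two-sided p of 0.1 at the least.

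The genes with the largest log2 fold changes lie closest to the markers by construction. Gla differed by 0.08, Man2b1 by -0.02, Atp6v0d2 by -0.02, Grn by -0.08, Psap by -0.10, Gm2a by -0.10 and Gusb by -0.11 on this log2 ratio, and the groups of all 7 overlapped. At the other end were Gaa at -1.05, Mitf at -1.04, Lamp2 at -0.74 and Smpd1 at -0.73, whose groups did not overlap and whose exact permutation p was 0.1, the smallest possible. Lamp1 differed by -0.57, also without overlap. Fitted with edgeR on libraries scaled to equal Adgre1 and Csf1r, 0 of the 37 were called higher (0.104% of all tested genes) and 13 lower (35.1%, against 50% of all tested genes). In that fit the median log2 fold change was -0.40 over the 37 and -0.78 over all tested genes. The 13 were Lamp1, Lamp2, Gaa, Smpd1, Galc, Mitf and 7 of the V-ATPase genes, namely Atp6v0a1, Atp6v0d1, Atp6v1a, Atp6v1d, Atp6v1h, Atp6ap1 and Atp6ap2.

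**Figure D4:**
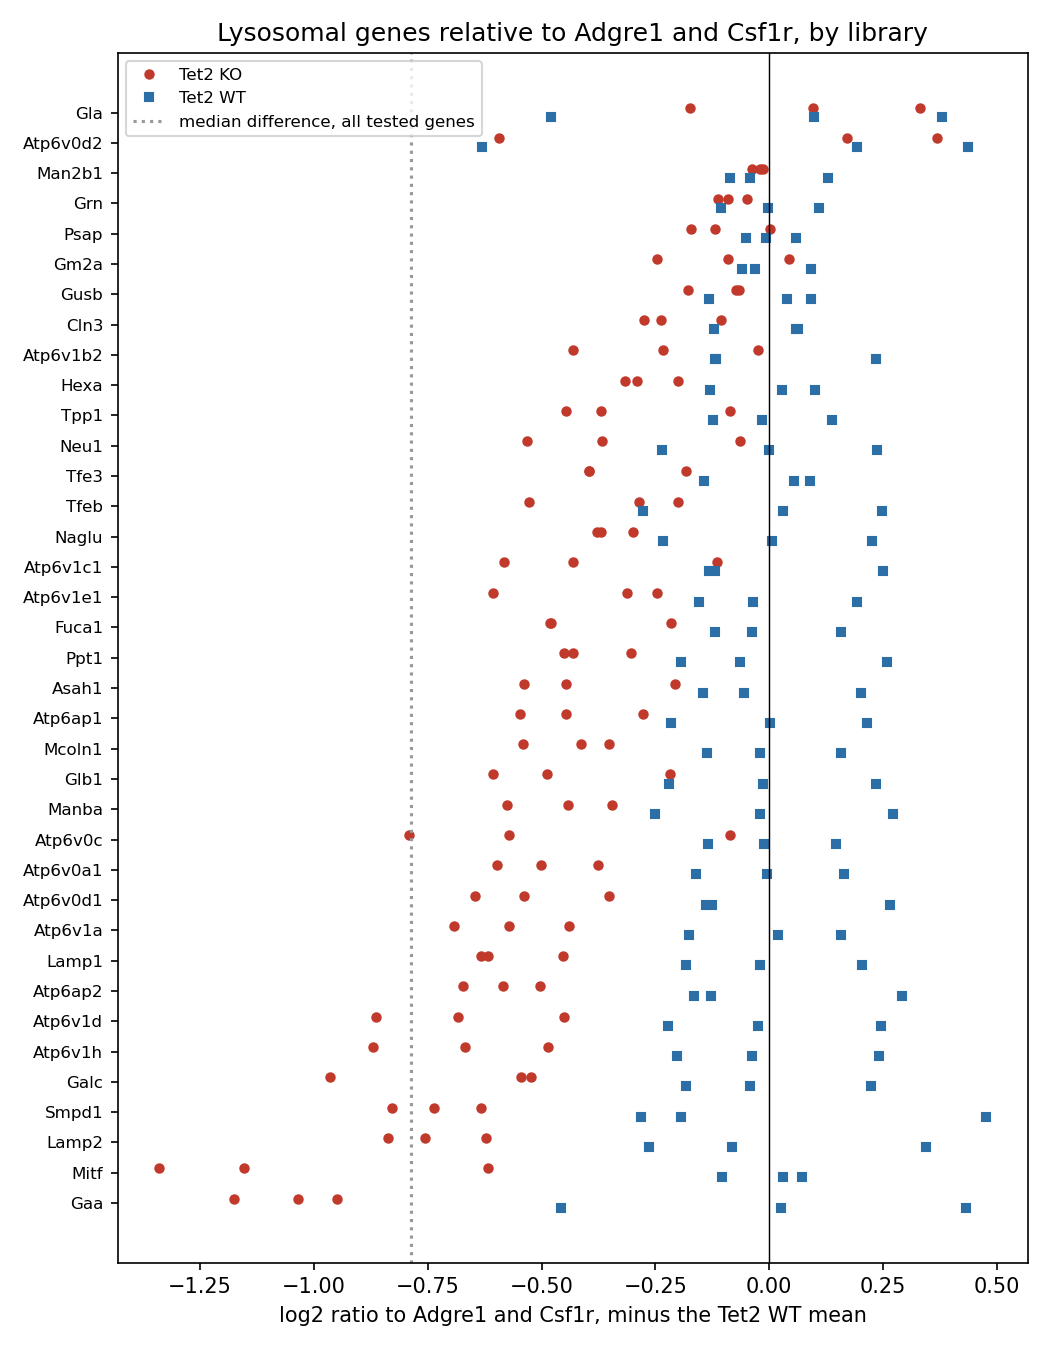
The log2 ratio of each of the 37 genes to the mean of Adgre1 and Csf1r is drawn for each library as its distance from the Tet2 WT mean, ordered by the Tet2 KO mean. The dotted line marks the median difference of all tested genes, -0.79; Gla sits highest and Gaa lowest.

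The share of each transcript in its gene's TPM is given as a description, since the counts lie near those of all genes. Of 58 transcripts in 25 of the genes that held between 10% and 90% of their gene's TPM, 7 had a higher share in all Tet2 KO libraries than in all Tet2 WT libraries (12.1%, against 7.92% of all such transcripts) and 5 a lower one (8.62%, against 7.45%). Shares rest on how kallisto divided shared reads and were not tested. Transcripts of a gene divide its TPM between them, so their shares are tied and the 7 and 5 are not separate results. Lamp2 has splice forms that differ in the last of their 9 exons, which encodes the transmembrane and cytosolic end. Lamp2-201, with its last exon at chromosome X, 38405062 to 38405571, held 44.7%, 38.4% and 43.8% of the gene's TPM in Tet2 KO, against 32.1%, 35.1% and 35.0% in Tet2 WT. Lamp2-202, with its last exon at 38419507 to 38421851, held 52.7%, 57.9% and 53.6% in Tet2 KO, against 65.0%, 61.5% and 62.2% in Tet2 WT. Both shares kept the genotypes apart, although the summed Lamp2 level did not. As these forms held nearly all of the gene's TPM, the shares mirror each other and count as a single result.

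The protein-coding Tfe3-204 held 25.3%, 21.2% and 26.9% of Tfe3 TPM in Tet2 KO, against 17.8%, 16.4% and 15.1% in Tet2 WT. Tfeb-212 held 27.4%, 21.8% and 27.4% of Tfeb TPM in Tet2 KO and 37.7%, 32.7% and 30.1% in Tet2 WT. Gla-201, of 3172 bases, held a mean share of 73.8% in Tet2 KO, against 60.3% in Tet2 WT. Gla-202, of 337 bases, held 26.2% in Tet2 KO, against 39.7% in Tet2 WT, and neither share overlapped. These forms made up the whole of the gene's TPM, so their shares mirror each other. For Atp6v1b2, the protein-coding Atp6v1b2-201 held 87.9%, 85.5% and 87.3% in Tet2 KO, against 76.5%, 80.9% and 81.9% in Tet2 WT. Its retained-intron transcript Atp6v1b2-203 held a mean share of 8.52% in Tet2 KO, against 13.4% in Tet2 WT, also without overlap. Protein-coding transcripts made up a small part of some genes. They held 21.9% of Neu1 TPM in Tet2 KO, against 23.1% in Tet2 WT. For Tpp1 this share was 28.5% in Tet2 KO, against 27.9% in Tet2 WT, and for Atp6v1d it was 34.4% in Tet2 KO, against 31.1% in Tet2 WT.

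**Figure D5:**
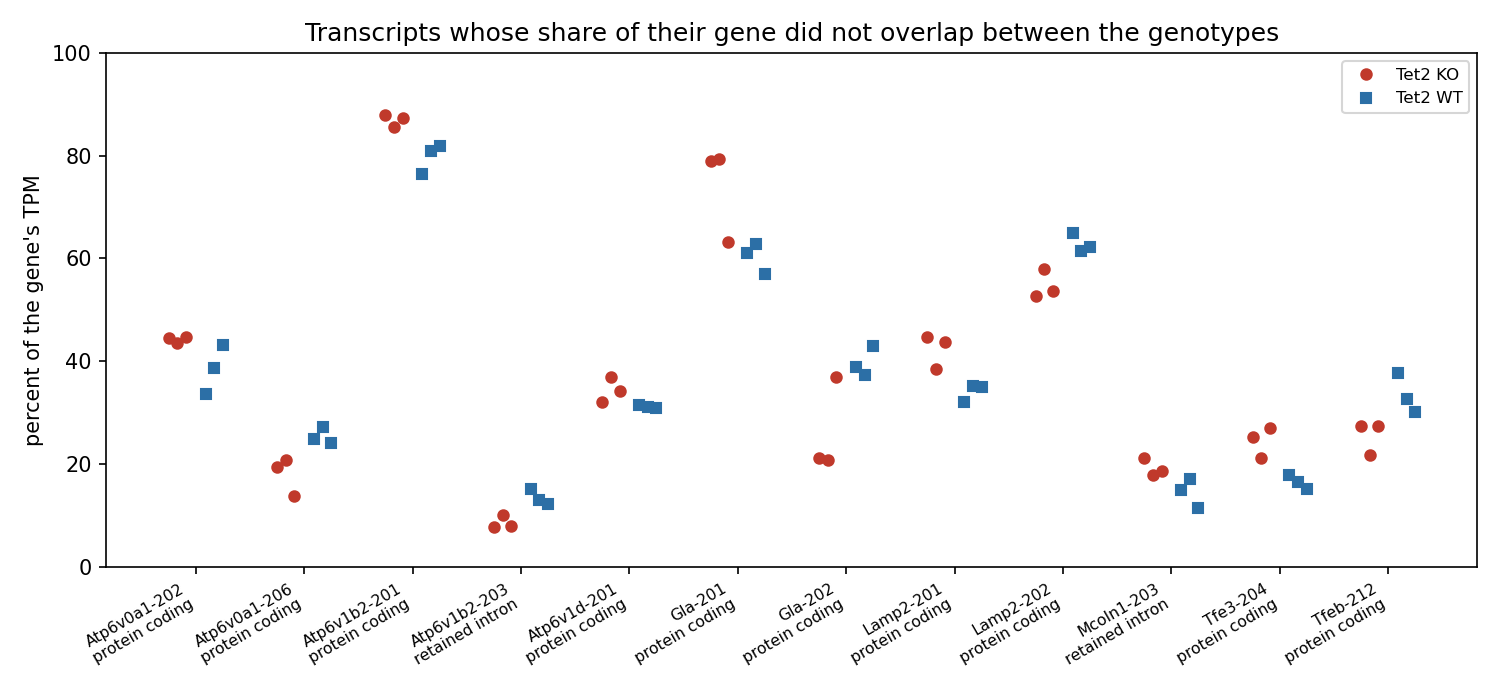
The percent share of its gene's TPM is plotted per library for transcripts whose shares did not overlap between genotypes. Lamp2-201 lies at 38.4% to 44.7% in Tet2 KO and at 32.1% to 35.1% in Tet2 WT.

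In a second list of 76 other lysosomal genes, 74 were tested; 8 rose (10.8%, against 6.11% of all tested genes) and 4 fell (5.41%, against 10.1%), and the median log2 fold change of the list was 0.17. Scaled to equal Adgre1 and Csf1r, 0 of them were called higher (0.104% of all tested genes) and 43 lower (58.1%, against 50% of all tested genes). The genes that rose were Laptm5, Pla2g15, Slc11a1, Acp2, Tcirg1, M6pr, Cd68 and Atp6v0b, the last named after its values were seen. Cd68 is also among the 16 pan-macrophage markers, so it counts in both lists. Laptm5, a lysosomal membrane protein of blood cells, averaged 2248 ± 104 CPM in Tet2 KO, against 1357 ± 183 CPM in Tet2 WT (SD, n = 3 each; log2 fold change 0.73, edgeR adjusted p = 0.0105). Tcirg1, the a3 subunit of the V-ATPase that acts in osteoclasts, averaged 107 ± 12.2 CPM in Tet2 KO, against 71.3 ± 8.91 CPM in Tet2 WT (0.59, edgeR adjusted p = 0.0195). The others that rose, the lysosomal phospholipase Pla2g15, the metal transporter Slc11a1, the acid phosphatase Acp2, the mannose 6-phosphate receptor M6pr, the macrophage glycoprotein Cd68 and Atp6v0b, had log2 fold changes of 0.64, 0.64, 0.63, 0.54, 0.61 and 0.53. The tetraspanin Cd63 (log2 fold change -0.37, edgeR adjusted p = 0.145) and the cholesterol transporter Npc1 (-0.06, edgeR adjusted p = 0.814) were not called. The count of 8 was 3 without Tet2 KO replicate 1, 15 without Tet2 KO replicate 2 and 1 without Tet2 KO replicate 3. It was 1 when Tet2 WT replicate 1 or 3 was left out. In these fits, in that order, 3.48%, 8.31%, 2.51%, 2.07% and 3.59% of all tested genes were called higher. Laptm5 was not called once Tet2 KO replicate 3 was left out (edgeR adjusted p = 0.0583), and Tcirg1 without Tet2 KO replicate 1, or Tet2 WT replicate 1 or 3 (0.0532 to 0.0836). Pla2g15 and Acp2 lost theirs without Tet2 KO replicate 3, or Tet2 WT replicate 1 or 3 (0.0502 to 0.0640), and the other 4 also without Tet2 KO replicate 1 (0.0507 to 0.139).

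Among the receptors that carry hydrolases to the lysosome, Igf2r and Sort1 fell, whereas M6pr rose. Igf2r, the large mannose 6-phosphate receptor, was at 4.87, 10.1 and 7.45 CPM in Tet2 KO, against 72.9, 43.2 and 48.6 CPM in Tet2 WT. No library overlapped, and the log2 fold change was -2.87 ± 0.30 (SE; edgeR adjusted p = 0.000296), called with any 1 library left out. Sort1, the sorting receptor sortilin, averaged 7.44 ± 1.30 CPM in Tet2 KO, against 12.5 ± 1.76 CPM in Tet2 WT (SD, n = 3 each; log2 fold change -0.75, edgeR adjusted p = 0.0469). Laptm4b and the V0 subunit Atp6v0e2 had log2 fold changes of -1.66 and -1.32. Without Tet2 KO replicate 2, or Tet2 WT replicate 1 or 3, 2 genes of the list were called lower. Of all tested genes, 10.3%, 6.09% and 7.34% were called lower in these fits. Sort1 was called with Tet2 KO replicate 1 left out and with no other library left out (edgeR adjusted p = 0.0767 to 0.177 in the rest), and Atp6v0e2 with Tet2 KO replicate 3 left out and no other (0.0762 to 0.142). The summed fibroblast markers stood in Tet2 KO at 0.137 times their Tet2 WT level, and their part in these falls was not tested. Of the 17 genes of mTORC1 and TFEB control at the lysosome, 0 were called by edgeR. An edgeR unadjusted p under 0.05 was found for 6 of the 17, against 4734 of the 16386 tested genes. DESeq2 called 1 of the 17 higher and 1 lower (8.84% and 12.2% of all tested genes). With limma voom, 1 was called higher and 0 lower (6.56% and 10.7% of all tested genes).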

How the data were processed

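RNA from sorted cardiac macrophages was sequenced in pairs of reads, in 3 Tet2 KO and 3 Tet2 WT libraries. The submitters' processing notes name Trim Galore 0.6.4, kallisto 0.44.0 and GRCm38. Transcript release and strand setting are not given in the sources used here. The authors deposited, per the file headers, estimated counts, not normalized, and TPM for each transcript. kallisto divides reads shared by transcripts by a model, so paralogs, overlapping genes and splice forms depend on it.

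Of 118783 transcripts, 116622 (98.2%) matched GENCODE M21 by identifier; the 2161 others held at most 0.671% of a library's counts and were left out. Estimated counts were summed over 35865 genes and rounded. In R 4.3.3, edgeR 4.0.16 filtered (16386 genes kept), scaled by TMM and tested genotype alone with the robust quasi-likelihood test, adjusting p-values over the whole table (Benjamini-Hochberg); a call is an adjusted p under 0.05. Standard errors are the fold change over the root of F. TPM was summed per gene. Ratios to Adgre1 and Csf1r used log2(CPM + 0.5) and exact two-sided permutation tests. The scripts were tested on simulated data. Alternatives were RLE, upper-quartile and Adgre1 with Csf1r scaling, other filters, length-scaled TPM counts, DESeq2 1.42.0, limma 3.58.1 (voom, and log2 of TPM plus 1 or 0.1), each library left out and a replicate block. Libraries of a genotype differed by more than sampling noise, with a chi-square per gene of at least 68.9. Depth was 37349505 to 55771087 counts a library, and differences were judged against the spread between the 3 libraries of each genotype.

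The genes and lists were chosen with earlier results of these data known. Values in every library are given for every called gene of the 37, the 4 uncalled with the largest fold change, and Lamp1, Lamp2, Grn, Tfeb, Tfe3, Mitf, Atp6v0d1, Atp6v0d2, Adgre1 and Csf1r; other values were added to show overlap. From the other lysosomal genes, up to 6 called per direction by smallest p were named, with Tcirg1, Cd63, Cd68 and Npc1; values of some genes are not reported here. Marker lists of B cells, T and NK cells, neutrophils and dendritic cells were also summed: they stood at 34.9 to 41.2, 2.12 to 3.58, 61.8 to 71.5 and 28.7 to 34.7 CPM in Tet2 KO, and at 56.8 to 83.7, 3.49 to 4.34, 39.6 to 53.6 and 29.3 to 34.6 CPM in Tet2 WT. Ncr1 and Retnlg had under 3 counts in every library.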

Additional observations from a re-analysis of the deposited data

How the results depend on the processing

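The 37 genes kept 0 calls lower under 16 of the 17 alternatives tried beside the fit reported above, and 13 under scaling to Adgre1 and Csf1r. Their calls higher numbered 10 with RLE scaling, 13 with upper-quartile scaling, 11 with no filter and with the stricter filter, 7 with length-scaled TPM counts, 14 with DESeq2 and 10 with limma voom, but 3 with limma on log2(TPM + 1), 3 on log2(TPM + 0.1) and 0 scaled to Adgre1 and Csf1r. Of all tested genes, 5.98% were called higher with RLE scaling and 6.52% with upper-quartile scaling. The share was 4.21% with no filter, 7.45% with the stricter filter and 5.53% with length-scaled TPM counts. It was 8.84% with DESeq2 and 6.56% with limma voom. With 1 library left out, calls higher among the 37 ranged from 1 (without Tet2 KO replicate 3) to 22 (without Tet2 KO replicate 2). Other lysosomal genes called higher numbered 0 when scaled to Adgre1 and Csf1r. They numbered 1 with limma on log2(TPM + 1) and 1 on log2(TPM + 0.1), and 1 to 15 with a library left out. Those called lower numbered 43 under that scaling and 2 to 4 with a library left out. All tested genes called higher numbered 17 under that scaling, 384 with limma on log2(TPM + 1), 400 on log2(TPM + 0.1), and 350 to 1402 with a library left out. Those called lower numbered 8194 under that scaling and 1032 to 1739 with a library left out. Of the 37, those without overlap and lower relative to Adgre1 and Csf1r were 22 to 29 with a library left out. Those higher were 0 to 1, the 1 being Man2b1 without Tet2 WT replicate 3. The matching counts over all tested genes are not given here. With every library kept, 72.4% of all tested genes were lower without overlap and 0.153% higher.

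Scaling to Adgre1 and Csf1r, which moves the median log2 fold change of all tested genes to -0.78, turned 42 values negative by construction: Smpd1 -0.77, Lamp2 -0.76, Atp6v1h -0.68, Galc -0.67, Atp6v1d -0.67, Atp6ap2 -0.60, Lamp1 -0.57, Atp6v1a -0.57, Atp6v0d1 -0.52, Atp6v0a1 -0.49, Manba -0.47, Atp6v0c -0.46, Glb1 -0.44, Mcoln1 -0.44, Atp6ap1 -0.43, Ppt1 -0.41, Asah1 -0.40, Fuca1 -0.39, Atp6v1e1 -0.39, Atp6v1c1 -0.37, Naglu -0.36, Tfeb -0.34, Tfe3 -0.32, Neu1 -0.32, Tpp1 -0.30, Hexa -0.27, M6pr -0.26, Atp6v0b -0.24, Atp6v1b2 -0.23, Cln3 -0.20, Cd68 -0.17, Tcirg1 -0.17, Acp2 -0.17, Pla2g15 -0.14, Slc11a1 -0.13, Gusb -0.11, Psap -0.095, Gm2a -0.094, Grn -0.087, Laptm5 -0.045, Man2b1 -0.026 and Adgre1 -0.0088. Elsewhere, values near 0 changed sign and the cause was not tested. On log2(TPM + 1) and log2(TPM + 0.1), Lamp2 was at -0.035 and -0.035, Smpd1 at -0.13 and -0.14, Atp6v1d at -0.13 and -0.13, and Atp6v1h at -0.032 and -0.032, where the median of all tested genes was -0.093 and -0.15. With 1 library left out, Lamp2 ranged from -0.022 to 0.18, Smpd1 ranged from -0.014 to 0.16, Galc ranged from -0.032 to 0.24, Atp6v1d ranged from -0.0088 to 0.22, Atp6v1h ranged from -0.0052 to 0.20 and Npc1 ranged from -0.11 to 0.032, changing sign without Tet2 KO replicate 1 (Lamp2, Atp6v1d, Atp6v1h), Tet2 KO replicate 3 (Smpd1, Galc), Tet2 WT replicate 3 (Smpd1, at -0.00025) or Tet2 WT replicate 2 (Npc1).

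Same-numbered libraries deviated from their group means with correlations of 0.0780, 0.173 and 0.0589 across genes, not all above 0.1, and Tet2 KO replicate 3 correlated better with Tet2 WT replicate 1 (0.0674), so the numbers were not taken as pairs. With the replicate block, 7 of the 37 and 5 of the other lysosomal genes were called higher (4.82% of all tested genes). By the same fit 0 and 3 were called lower (9.51% of all tested genes). Relative to Adgre1 and Csf1r, 30 of the 37 were lower in every pair. The same count over all tested genes is not given here. As 97.1% of them had a ratio difference below 0, the 30 were not read as a trait of the 37. Depth was not varied: Atp6v0d2, at 1.91 to 9.85 CPM the gene with the lowest counts of the 37, had the widest standard error, 0.47.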
